A study of Mus musculus with 4 samples.

Results

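The lateral nasal process, the swelling lateral to the nasal pit that forms the side of the nose, was compared with the mandibular process, the part of the first pharyngeal arch that forms the lower jaw, in mouse embryos at stage e11.5. Genes were chosen from these libraries alone: a gene had to reach 5 CPM (counts scaled to a library total of 1000000 over all genes) in either library, and the levels, after 0.5 CPM was added to each, had to differ at least 2-fold. Of 43346 gene entries, 12043 reached 5 CPM and 604 differed 2-fold, 320 of them higher in the lateral nasal library (2.66% of the genes tested) and 284 higher in the mandibular library (2.36%). Both groups were WT, e11.5, freshly dissected and of mixed cell types, with 1 library of total RNA each, and the same holds for the medial nasal and maxillary processes, which completed the series of 4 libraries and did not enter the choice. The tissue label of the medial nasal library carries the abbreviation LNP, and its group was taken from its title, so values for that library rest on the title. Neither the strain nor how many embryos went into a library is given in the sources used here. The differences have no replicate check, each process having 1 library, and p-values were not computed. The intervals beside folds are exact 95% intervals that cover counting error only, and in bulk tissue fewer cells of a type and less RNA per cell cannot be told apart.

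Library totals were 16163913 counts for the lateral nasal process and 13680323 for the mandibular process, so that 3 counts, the limit that a count of 0 allows, correspond to 0.186 CPM in the lateral nasal and 0.219 CPM in the mandibular library. A level of 5 CPM rested on 80.8 counts in the lateral nasal library and on 68.4 in the mandibular library. The counting interval of the fold lay wholly above 2 for 212 of the 320 genes and for 206 of the 284. The median log2 difference of all genes tested, lateral nasal minus mandibular, was 0.06. Transcripts of the X-inactivation RNA Xist and of Y-linked genes were present in both libraries.

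The mesenchyme of the facial processes derives mostly from cranial neural crest, and its regional identity is set by transcription factors that respond to signals from the overlying epithelium. In the first arch, endothelin signalling from the distal epithelium induces Dlx5 and Dlx6 and, through them, Hand2, and this cascade sets lower jaw identity. The nasal processes do not belong to the arch: they form around the olfactory placode, and their mesenchyme is known for Alx and Pax3/Pax7 expression and for retinoic acid made in the nasal pit and the eye region.

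The labels were set beside 5 marker genes, which come from the same comparison that chose the genes and so are a description. Pax7, a paired-box factor of nasal neural crest (ENSMUSG00000028736, chr4:139737062-139833528 on GRCm38, minus strand), had 113 CPM in the lateral nasal library, against 3.44 CPM in the mandibular library, a fold of 33 (24.7 to 45). Aldh1a3, an enzyme that makes retinoic acid (chr7:66390890-66427517 on GRCm38, minus strand), had 93.2 CPM (lateral nasal) against 3.51 CPM (mandibular), a fold of 26.6 (19.9 to 36.2). Msx1, a homeobox factor of growing facial mesenchyme (chr5:37820485-37824583 on GRCm38, minus strand), was abundant in both, with 267 CPM in the lateral nasal and 113 CPM in the mandibular library, and it differed least of the 5 (fold 2.36, 2.23 to 2.5). The remaining markers stood higher in the mandibular library. Hand2, a basic helix-loop-helix factor of the distal arch (chr8:57320983-57324633 on GRCm38, plus strand), had 0.309 CPM, or 5 counts, in the lateral nasal library and 101 CPM in the mandibular library, and its log2 difference of -6.97 was the most negative of all genes tested. Foxf1, a forkhead factor (chr8:121084386-121088144 on GRCm38, plus strand), had 3.53 CPM (lateral nasal) against 31.8 CPM (mandibular), so that the mandibular level was 9.02 times the lateral nasal level (6.83 to 12.1). Msx1 is listed with both the frontonasal and the distal arch genes, so no side is given for it by the labels. On the deposited TPM scale, which corrects for transcript length, Pax7 had 18.1 TPM in the lateral nasal and 0.52 TPM in the mandibular library, and Hand2 0.13 TPM in the lateral nasal and 41.9 TPM in the mandibular library.

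**Figure D1:**
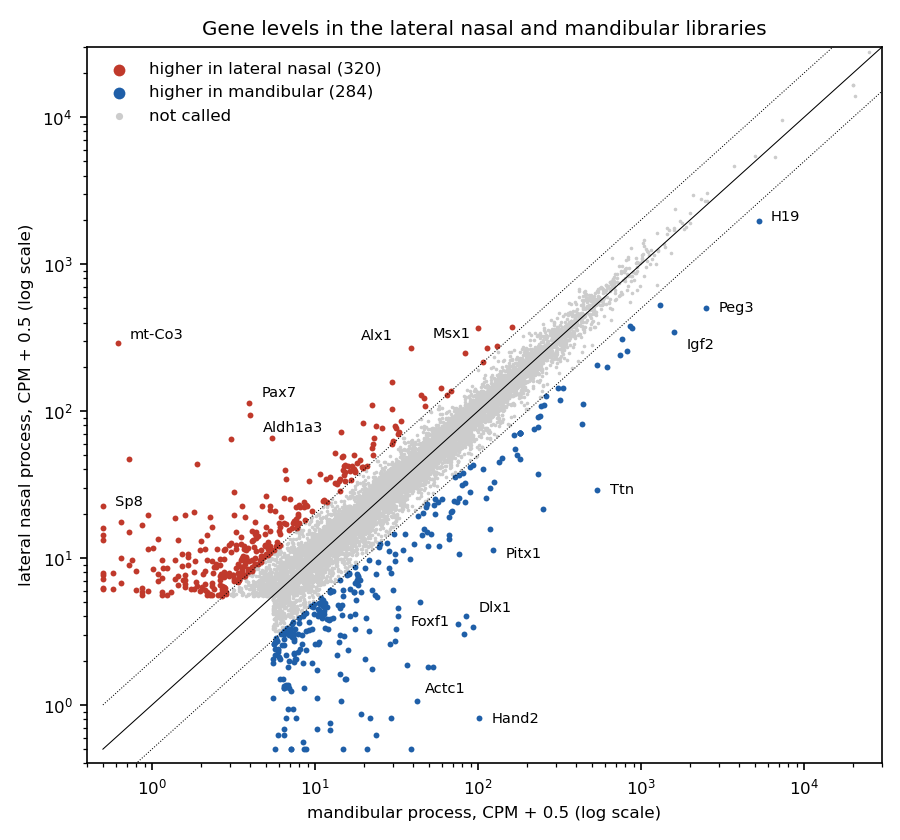
Level of each of the 12043 genes tested, with the lateral nasal library on the vertical axis and the mandibular library on the horizontal axis, both as CPM + 0.5 on log scales. The solid line marks equal levels and the dotted lines 2-fold differences; 320 genes lie above the upper line in red and 284 below the lower line in blue, with Hand2 at 0.309 CPM (lateral nasal) against 101 CPM (mandibular) and Pax7 at 113 CPM (lateral nasal) against 3.44 CPM (mandibular).

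Promoters of 4 genes are shown, Pax7 from the lateral nasal side and Hand2, Myog and Actc1 from the mandibular side, because these genes carry the regional and the muscle differences described further on. Each window runs from 250 bases before to 50 bases after the RefSeq start on GRCm38.p6 and is written in the direction of transcription: Pax7 at chr4:139832919-139833218 (minus strand), Hand2 at chr8:57320733-57321032 (plus strand), Myog at chr1:134289754-134290053 (plus strand) and Actc1 at chr2:114052826-114053125 (minus strand). Capitals mark matches to CANNTG, the E-box letters bound by basic helix-loop-helix factors, to TAATTA, a homeodomain core, and to the CArG box.
Pax7: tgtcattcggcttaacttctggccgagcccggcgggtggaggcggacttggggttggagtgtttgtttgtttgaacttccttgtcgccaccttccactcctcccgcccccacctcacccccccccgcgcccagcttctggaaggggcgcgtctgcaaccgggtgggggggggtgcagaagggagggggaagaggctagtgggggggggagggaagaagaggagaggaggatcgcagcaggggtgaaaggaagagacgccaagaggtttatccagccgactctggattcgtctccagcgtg
Hand2: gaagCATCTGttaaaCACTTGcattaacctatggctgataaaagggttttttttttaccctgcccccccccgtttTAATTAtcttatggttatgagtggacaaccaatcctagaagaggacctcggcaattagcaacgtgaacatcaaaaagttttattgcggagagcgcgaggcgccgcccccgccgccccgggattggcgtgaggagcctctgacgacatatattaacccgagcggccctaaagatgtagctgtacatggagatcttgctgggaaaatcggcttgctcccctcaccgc
Myog: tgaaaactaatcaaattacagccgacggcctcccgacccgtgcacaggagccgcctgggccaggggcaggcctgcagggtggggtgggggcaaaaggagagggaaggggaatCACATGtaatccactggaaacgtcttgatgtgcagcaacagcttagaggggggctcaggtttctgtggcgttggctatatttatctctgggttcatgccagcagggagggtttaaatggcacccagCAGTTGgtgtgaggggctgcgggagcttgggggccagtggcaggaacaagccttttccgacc
Actc1: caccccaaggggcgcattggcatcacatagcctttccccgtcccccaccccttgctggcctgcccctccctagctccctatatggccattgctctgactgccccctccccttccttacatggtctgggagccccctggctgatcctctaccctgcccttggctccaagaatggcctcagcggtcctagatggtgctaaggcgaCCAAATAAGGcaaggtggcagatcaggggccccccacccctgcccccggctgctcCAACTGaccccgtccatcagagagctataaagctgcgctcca
The first search, on both strands, was for the E-box variants CAGCTG, known from muscle genes, and, as another variant, CATCTG, together with the homeodomain core TAATTA, and 3 of the 4 windows held none of these 3. The general E-box CANNTG, of which both variants are cases, and the CArG box were added after that was seen, so that 5 motifs were searched in all. The Hand2 window held 1 CATCTG, 1 TAATTA and 2 CANNTG, Myog 2 CANNTG, Actc1 1 CANNTG and 1 CArG box, and Pax7 none of the 5. Over all 32851 RefSeq promoter windows of this length, 72.3% held CANNTG, 17.2% CATCTG, 16.3% CAGCTG, 5.29% TAATTA and 1.63% a CArG box, so a match to CANNTG is common. RefSeq windows were found for 215 of the 320 genes and 163 of the 284, and CANNTG was in 69.6% of the windows of genes higher in the lateral nasal library and in 67.6% of those higher in the mandibular library.

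Most called genes were less than 4-fold apart. Of the 320 genes higher in the lateral nasal library, 94 were at least 4-fold and 14 at least 16-fold apart, and of the 284 higher in the mandibular library 87 were at least 4-fold and 21 at least 16-fold apart. The lateral nasal genes were scarcer, with a median of 11.2 CPM in the library where they stood higher and 18 genes at 100 CPM or more, against a median of 15.4 CPM and 44 genes for the mandibular side. By biotype, 296 of the 320 and 215 of the 284 were protein-coding, beside 11223 of all 12043 genes tested. Other biotypes thus made up more of the mandibular side than of the genes tested. Protein-coding genes held 87.4% of the counts in the lateral nasal library and 85.6% in the mandibular library. Whether this composition bears on the 284 genes was not tested. Among the protein-coding genes furthest apart on the lateral nasal side were the flippase gene Atp8b4, at 17.1 CPM in the lateral nasal library and 2 counts in the mandibular library (fold 117, 32 to 969), and the follistatin-like gene Fstl5, at 19.1 CPM (lateral nasal) against 0.439 CPM (mandibular). Cpxm2, a carboxypeptidase family gene, had 63.6 CPM (lateral nasal) against 2.56 CPM (mandibular). On the mandibular side stood the smooth muscle actin gene Acta2, with 1.3 CPM in the lateral nasal and 49 CPM in the mandibular library, and Sim2, a basic helix-loop-helix factor gene, with 0.371 CPM (lateral nasal) against 18.6 CPM (mandibular). Gpr50, an orphan receptor gene of the melatonin receptor family, had 2 counts in the lateral nasal library and 23.1 CPM in the mandibular library, where the ratio of 187 has a counting interval of 51.3 to 1548. Prrx1, a homeobox factor of limb and jaw mesenchyme, was among the most abundant genes called, with 381 CPM (lateral nasal) against 851 CPM (mandibular), and the maxillary library, at 876 CPM, was near the mandibular level.

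Frontonasal transcription factors stood higher in the lateral nasal library. Of 8 frontonasal mesenchyme genes, all tested, 4 were at least 2-fold higher in the lateral nasal library and none in the mandibular library, with a median log2 difference of 1.03. Alx1, a homeobox factor required for the midface and eye region, had 268 CPM in the lateral nasal library and 38.4 in the mandibular library (fold 6.97, 6.37 to 7.65). Its medial nasal level was 272 CPM. Pax3, the paired-box partner of Pax7, had 156 CPM (lateral nasal) against 29.1 CPM (mandibular) (fold 5.36, 4.82 to 5.98). The remaining members lay within 2-fold, among them Alx4 at 302 CPM (lateral nasal) against 209 CPM (mandibular). The AP-2 factors, neural crest and ectoderm regulators, were divided: Tfap2b had 110.0 CPM (lateral nasal) against 22 CPM (mandibular) and Tfap2a 11.6 CPM (lateral nasal) against 3.14 CPM (mandibular), whereas Tfap2c had 18.5 CPM (lateral nasal) against 21.1 CPM (mandibular). Nr2f2, an orphan nuclear receptor, lay the other way with 47 CPM in the lateral nasal and 139 CPM in the mandibular library.

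Most arch patterning genes stood higher in the mandibular library. Of 9 distal first arch genes tested, 5 were higher in the mandibular library and 1, Msx1, in the lateral nasal library (median log2 difference -1.22). This list shares Dlx3, Dlx4, Dlx5 and Dlx6 with the list of Dlx genes, so the results of both lists overlap. All 5 Dlx genes tested were at least 2-fold higher in the mandibular library (median log2 difference -2.65), and Dlx4 did not reach 5 CPM. Dlx1, a homeobox factor of the whole arch, had 3.53 CPM in the lateral nasal library and 83.4 in the mandibular library, where its level was 23.6 times as high (18.1 to 31.4). Dlx5 and Dlx6, the ventral arch pair, had 2.78 CPM (lateral nasal) against 17.2 CPM (mandibular) and 4.08 CPM (lateral nasal) against 31.7 CPM (mandibular). Hand1, a relative of Hand2 at the distal tip, had 0 counts in the lateral nasal library and 8.33 CPM in the mandibular library, at least 44.9-fold higher there against a floor of 3 counts. Gsc, a homeobox factor downstream of endothelin signalling, was below the 2-fold limit with 27.2 CPM (lateral nasal) against 48.8 CPM (mandibular).

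Upstream of these factors, the endothelin signalling genes that reached 5 CPM were close in level. None of these 10 differed 2-fold (median log2 difference -0.16). The receptor gene Ednra had 75.1 CPM in the lateral nasal library and 80.5 in the mandibular library, and the converting enzyme gene Ece1 75.4 CPM (lateral nasal) against 72.1 CPM (mandibular). Of the 12 genes listed, 2 lay below 5 CPM and were not compared. A listed gene had 0 counts in the lateral nasal library, and none had 0 counts in the mandibular library. Factors of the oral mesenchyme, from which teeth and the oral side of the jaw form, stood higher in the mandibular library in 4 of 7 cases (median -2.21). Pitx1, a hindlimb and jaw homeobox factor, had 10.8 CPM (lateral nasal) against 124 CPM (mandibular), Barx1 15.3 CPM (lateral nasal) against 118 CPM (mandibular) and Lhx6 4.52 CPM (lateral nasal) against 43.6 CPM (mandibular). Pax9 and Isl1 were not called, with 59.7 CPM (lateral nasal) against 34.9 CPM (mandibular) and 8.41 CPM (lateral nasal) against 8.63 CPM (mandibular).

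**Figure D2:**
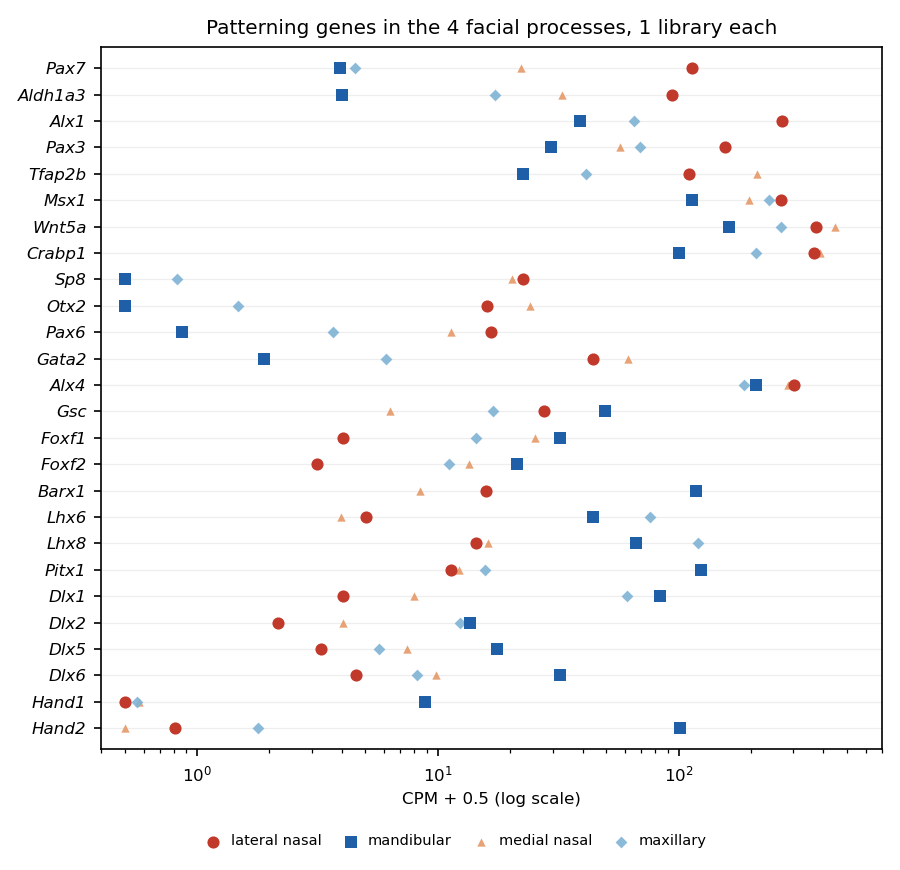
Levels of 26 patterning genes as CPM + 0.5 on a log scale, 1 point per library, with lateral nasal as red circles, mandibular as blue squares, medial nasal as orange triangles and maxillary as light blue diamonds. Pax7 lies furthest right in the lateral nasal library and Hand2, Dlx1 and Pitx1 in the mandibular library, with Hand2 near 0 in the other 3. Alx1 lies far right in both the lateral nasal (268 CPM) and the medial nasal library (272 CPM). Dlx1 had 60.4 CPM in the maxillary library, beside 83.4 CPM in the mandibular library.

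Most forkhead genes tested lay toward the mandibular library. Of 11 tested, 10 had a log2 difference below 0, 5 were called higher in the mandibular library and 1 in the lateral nasal library (median -0.67). Foxf2, which is needed for the palate, had 2.66 CPM in the lateral nasal and 20.8 CPM in the mandibular library, and Foxd1 5.51 CPM (lateral nasal) against 21.9 CPM (mandibular). Foxc1, a regulator of eye and skull mesenchyme, lay the other way with 42.7 CPM (lateral nasal) against 14.8 CPM (mandibular). T-box genes had 4 of 7 members higher in the mandibular library, of which Tbx3, a limb and jaw repressor, had 30.6 CPM (lateral nasal) against 79.2 CPM (mandibular). The 4 Iroquois genes tested divided by cluster: Irx3 and Irx5, neighbours on chromosome 8, had 38.6 CPM (lateral nasal) against 17.1 CPM (mandibular) and 41.6 CPM (lateral nasal) against 16.4 CPM (mandibular), and Irx1 and Irx2, neighbours on chromosome 13, had 4.21 CPM (lateral nasal) against 8.92 CPM (mandibular) and 1.79 CPM (lateral nasal) against 7.38 CPM (mandibular). With deposited TPM, Irx1 and Irx2 fell under 2-fold (log2 differences -0.89 and -0.98). Below 5 CPM lay Irx4 on chromosome 13, with 2.72 CPM (lateral nasal) against 3.36 CPM (mandibular), and Irx6 on chromosome 8, with 4.64 CPM (lateral nasal) against 0.804 CPM (mandibular).

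In retinoic acid metabolism and response, 3 of 15 genes were higher in the lateral nasal library and 1 in the mandibular library (median 0.39). Crabp1, which binds retinoic acid in the cytoplasm, had 365 CPM (lateral nasal) against 99.6 CPM (mandibular). The synthesizing enzymes went separate ways, since Aldh1a1 had 11.2 CPM (lateral nasal) against 0.512 CPM (mandibular), beside Aldh1a3 above, and Aldh1a2 had 22.4 CPM (lateral nasal) against 52.9 CPM (mandibular). Rarb, a receptor gene that retinoic acid induces, had 87.4 CPM (lateral nasal) against 44.3 CPM (mandibular), a log2 difference of 0.97.

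BMP signalling had 5 of 19 genes higher in the lateral nasal library and none in the mandibular library (median 0.60). The ligand gene Bmp7 had 78.2 CPM in the lateral nasal and 30.6 CPM in the mandibular library, and Bmp4 59.6 CPM (lateral nasal) against 29.1 CPM (mandibular). Among the Id genes, which BMP signals induce, Id4 had 19.2 CPM (lateral nasal) against 2.7 CPM (mandibular) and Id3 128 CPM (lateral nasal) against 63.7 CPM (mandibular). Bmp4, Id3, Fgf8 and Rspo1 lay close to 2-fold, and each was under it with TMM factors, with DESeq2 size factors and with scaling to protein-coding genes. The receptor gene Bmpr1a was level, with 273 CPM (lateral nasal) against 267 CPM (mandibular).

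Hedgehog signalling had 3 of 12 genes higher in the mandibular library and 1 in the lateral nasal library. The targets Ptch1 and Gli1, whose transcripts rise where hedgehog ligand is received, had 77 CPM (lateral nasal) against 233 CPM (mandibular) and 21.7 CPM (lateral nasal) against 47.4 CPM (mandibular). Boc, a co-receptor, lay the other way with 143 CPM (lateral nasal) against 59 CPM (mandibular). In Wnt signalling 5 of 33 genes were higher in the lateral nasal library and 3 in the mandibular library. Wnt5a, a ligand of outgrowing tissue, had 371 CPM (lateral nasal) against 161 CPM (mandibular) and was the most abundant protein-coding gene called higher in the lateral nasal library; the secreted inhibitor genes were divided, Wif1 with 25.1 CPM (lateral nasal) against 5.92 CPM (mandibular) and Frzb with 23.4 CPM (lateral nasal) against 73.4 CPM (mandibular). In FGF signalling 1 of 16 genes passed the limit, Fgf8, at 5.2 CPM (lateral nasal) against 2.34 CPM (mandibular).

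The other signalling lists held few called genes. Notch signalling had 2 of 14 higher in the lateral nasal library, of which Hey1, a target gene of the pathway, had 45.8 CPM (lateral nasal) against 18.3 CPM (mandibular), while the receptor gene Notch1 had 77.1 CPM (lateral nasal) against 94 CPM (mandibular). TGF-beta signalling had 1 of 12, Gdf10, a ligand gene, at 14.1 CPM in the lateral nasal and 3.8 CPM in the mandibular library. Of 30 genes of axon guidance and ephrin signalling, 1 was higher in the lateral nasal library and 2 in the mandibular library. Epha3, an ephrin receptor gene, had 74.4 CPM (lateral nasal) against 219.7 CPM (mandibular) and Slit3, a guidance ligand gene, 18.6 CPM (lateral nasal) against 65.4 CPM (mandibular). Pdgfra, the receptor gene that marks facial mesenchyme, was high in both, with 581 CPM in the lateral nasal and 696 CPM in the mandibular library. Of 8 Meis and Pbx genes, cofactors of homeobox proteins, Pbx3 alone passed 2-fold, with 41.4 CPM (lateral nasal) against 89.3 CPM (mandibular). Pou3f3, a POU factor gene, had 23.6 CPM (lateral nasal) against 56.2 CPM (mandibular), yet 148 CPM in the medial nasal and 190.0 CPM in the maxillary library, so that both compared processes were the lower ones of the 4.

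**Figure D3:**
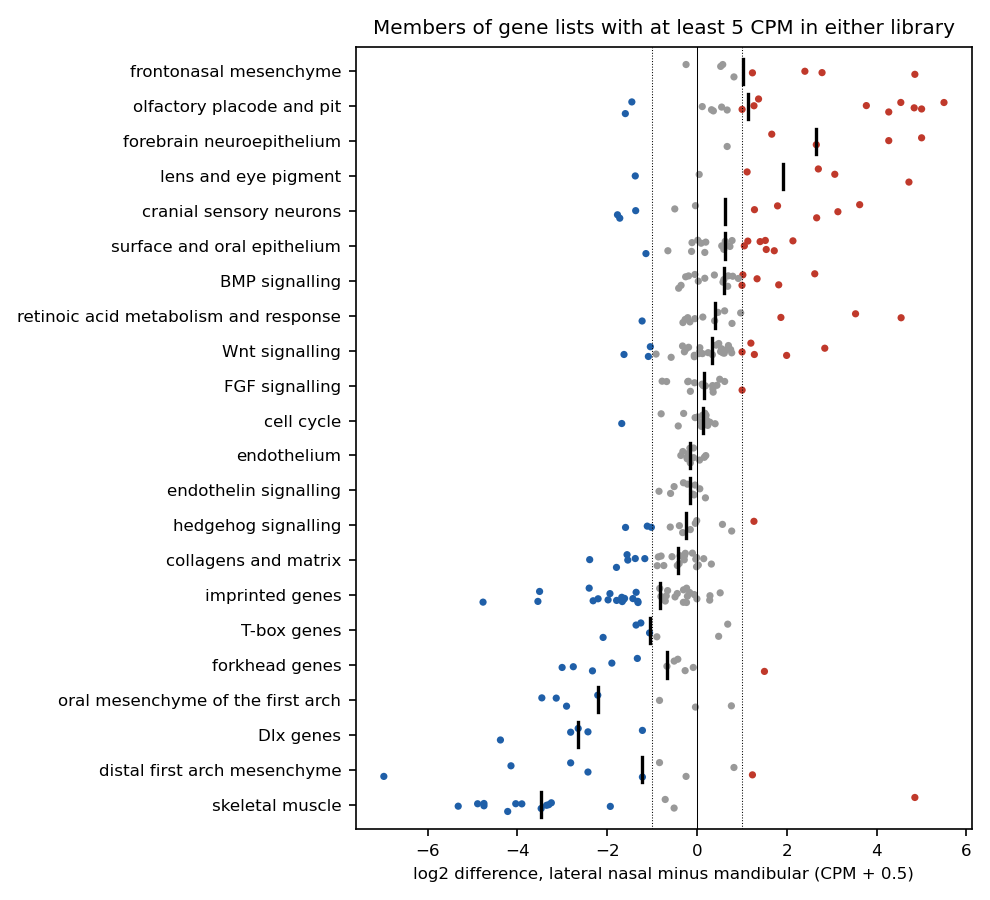
Log2 difference, lateral nasal minus mandibular, of each gene with at least 5 CPM in 22 gene lists; red points were called higher in the lateral nasal library, blue points higher in the mandibular library, grey points in neither, black bars are list medians and dotted lines mark 2-fold. Medians run from 2.66 for forebrain neuroepithelium to -3.47 for skeletal muscle, beside 0.06 over all genes tested.

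Markers of other cell types moved with the comparison in both directions, and their part in the results above was not tested. Skeletal muscle genes stood higher in the mandibular library: 12 of 15 tested, with 1, Pax7, higher in the lateral nasal library, and a median of -3.47. Summed over the 27 listed genes the level was 193 CPM in the lateral nasal library, of which Pax7 alone gave 113 CPM, and 919 CPM in the mandibular library. Myog, the myogenic regulator of differentiation, had 0.309 CPM, or 5 counts, in the lateral nasal library and 21.2 CPM in the mandibular library. Actc1, an actin of early striated muscle, had 0.557 CPM (lateral nasal) against 41.7 CPM (mandibular) and Ttn, the giant sarcomere protein gene, 28.5 CPM (lateral nasal) against 538 CPM (mandibular). The mandibular library was the highest of the 4 for these 3 genes and the maxillary library came next, with 13.9 CPM for Actc1 and 185 CPM for Ttn.

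On the lateral nasal side stood genes of the olfactory pit, the forebrain and the eye. Of 16 olfactory genes tested, 9 were higher in the lateral nasal library and 2 in the mandibular library (median 1.14). Sp8, a zinc finger factor of the nasal pit, had 22.1 CPM in the lateral nasal library and 0 counts in the mandibular library, at least 101-fold higher; Otx2 (15.5 CPM) and Fezf1 (13.8 CPM) likewise had counts in the lateral nasal library and 0 counts in the mandibular library. Gata2 had 43.4 CPM (lateral nasal) against 1.39 CPM (mandibular). These olfactory genes were not particular to the lateral nasal process. In the medial nasal library Sp8 had 19.9 CPM, Otx2 23.8 CPM, Fezf1 16.2 CPM and Gata2 61.3 CPM. Ebf3 and Ebf2, listed with them but also expressed in mesenchyme, lay the other way with 55.1 CPM (lateral nasal) against 167 CPM (mandibular) and 19.3 CPM (lateral nasal) against 53.6 CPM (mandibular). Summed forebrain markers came to 61.5 CPM in the lateral nasal and 7.71 CPM in the mandibular library, beside 128 CPM in the medial nasal and 25.5 CPM in the maxillary library.

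Lens and eye pigment genes were few: 4 of 6 tested were higher in the lateral nasal library, 1 was higher in the mandibular library and 17 listed genes lay under 5 CPM. Cryaa, a lens crystallin, had 12.7 CPM in the lateral nasal library and 0 counts in the mandibular library, 0 in the medial nasal library and 4.94 CPM in the maxillary library. Sensory neuron genes went both ways, with Stmn2 at 27.7 CPM (lateral nasal) against 2.7 CPM (mandibular) and the neurofilament gene Nefm at 3.4 CPM (lateral nasal) against 12.4 CPM (mandibular). Of 21 epithelial genes tested, 7 were higher in the lateral nasal library and 1, the keratin gene Krt15, in the mandibular library, with 12.1 CPM (lateral nasal) against 27.3 CPM (mandibular). Among the 7 was the adhesion gene Epcam with 65.4 CPM (lateral nasal) against 22.4 CPM (mandibular), while the pan-epithelial Cdh1 had 57.5 CPM (lateral nasal) against 39.1 CPM (mandibular). Endothelial, leukocyte and erythroid lists had no gene past 2-fold. These lists are short: 99.1% of all genes tested were in none of them, beside 91.2% of the 320 genes higher in the lateral nasal library and 92.6% of the 284 higher in the mandibular library.

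Imprinted genes, which are expressed from 1 parental copy and many of which control fetal growth, stood higher in the mandibular library: 17 of 35 tested, none higher in the lateral nasal library, median -0.83. Igf2, the fetal growth factor gene, had 345 CPM in the lateral nasal library and 1591 CPM in the mandibular library, where its level was 4.61 times as high (4.47 to 4.75). Its neighbour H19, a non-coding RNA expressed from the other parental copy, had 1952 CPM (lateral nasal) against 5249.7 CPM (mandibular). Peg3, a zinc finger gene, had 499.6 CPM (lateral nasal) against 2485 CPM (mandibular). Paternally and maternally expressed genes were thus on the same side. Cdkn1c, a cell cycle inhibitor gene, had 255 CPM (lateral nasal) against 816 CPM (mandibular), and Dlk1 and Meg3, neighbours on chromosome 12, had 20.9 CPM (lateral nasal) against 249 CPM (mandibular) and 81.3 CPM (lateral nasal) against 432 CPM (mandibular). Grb10 was nearly level with 1904 CPM (lateral nasal) against 1987 CPM (mandibular), and Gnas lay within 2-fold with 774 CPM (lateral nasal) against 909.7 CPM (mandibular). Summed over all 40 listed genes, imprinted genes had 9280.4 CPM in the lateral nasal, 20705 CPM in the mandibular, 10192 CPM in the medial nasal and 10284 CPM in the maxillary library, so the mandibular library stood apart from the other 3. Of 19 cell cycle genes tested Cdkn1c alone was called, and Mki67, a marker of dividing cells, had 1224 CPM (lateral nasal) against 1260.2 CPM (mandibular).

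**Figure D4:**
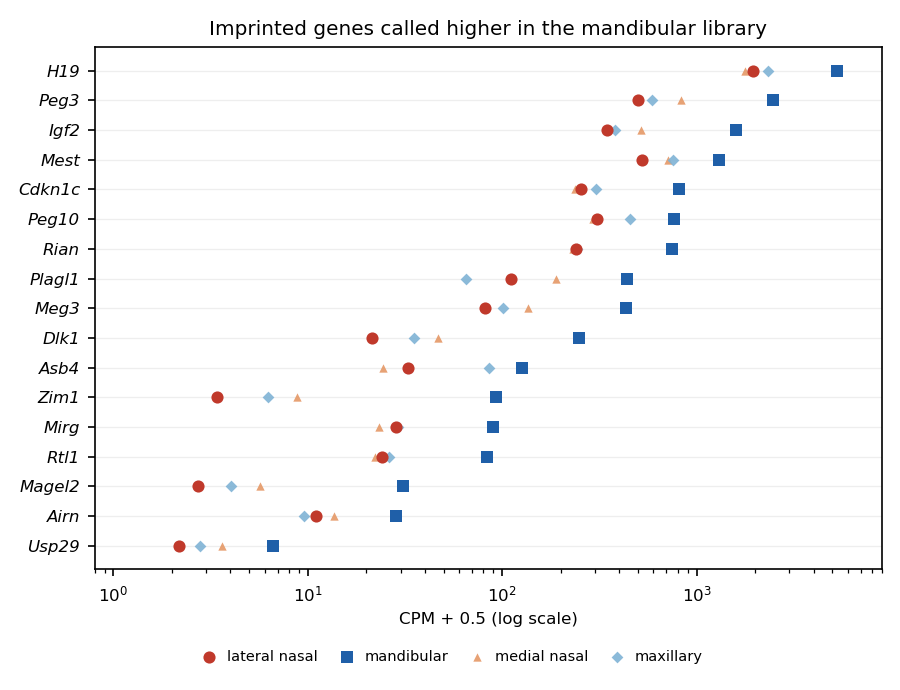
Levels of the 17 imprinted genes called higher in the mandibular library, as CPM + 0.5 on a log scale, 1 point per library, with lateral nasal as red circles, mandibular as blue squares, medial nasal as orange triangles and maxillary as light blue diamonds. The mandibular point is the rightmost for each gene, as for Igf2 at 345 CPM in the lateral nasal and 1591 CPM in the mandibular library.

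Matrix genes were lower in the lateral nasal library where they differed: 6 of 24 tested were higher in the mandibular library and none in the lateral nasal library (median -0.42). Tnc, a matrix glycoprotein gene, had 49.6 CPM (lateral nasal) against 173 CPM (mandibular) and Postn, a periosteal matrix gene, 92.6 CPM (lateral nasal) against 241 CPM (mandibular). The abundant Col3a1 was level, with 1376 CPM in the lateral nasal and 1386 CPM in the mandibular library. Of 12 cartilage and bone genes 2 were higher in the mandibular library, and Col2a1, the main cartilage collagen gene, had 151 CPM (lateral nasal) against 248 CPM (mandibular).

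Some large differences rest on counts that reads shared between genes can move. The mitochondrial gene mt-Co3 had 289.9 CPM in the lateral nasal library and 0.115 CPM in the mandibular library, the most positive log2 difference of all (8.88), but its nuclear copy Gm28437 had 2689 CPM in the lateral nasal and 2528 CPM in the mandibular library, and both genes together came to 2979 CPM in the lateral nasal and 2528 CPM in the mandibular library. With the posterior mean count in place of the expected count mt-Co3 no longer passed 2-fold (log2 difference 0.28). Of the called genes, 17 higher in the lateral nasal library and 19 higher in the mandibular library had counts that differed by at least 10% between these estimates. Among non-coding genes Six3os1, antisense to the eye-field gene Six3, had 46.6 CPM in the lateral nasal library and 3 counts in the mandibular library (fold 213, 72.5 to 1034), and Hand2os1, antisense to Hand2, had 0 counts in the lateral nasal library and 20.5 CPM in the mandibular library. The strand setting of the counting is not given in the sources used here, so reads of such a gene and its partner cannot be told apart.

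The medial nasal and maxillary libraries, which had no part in choosing the genes, were read next. Of the 320 genes higher in the lateral nasal library, 270 (84.4%) were also higher in the medial nasal than in the maxillary library. Among all genes tested that share was 50.7%. The difference was at least 2-fold for 160 of the 320 genes, against 3.35% of all genes tested. In the opposite direction, 13 (4.06%) were at least 2-fold higher in the maxillary library, against 1.09% of all genes tested. Of the 284 genes higher in the mandibular library, 149 (52.5%) were higher in the maxillary than in the medial nasal library, where the share among all genes tested was 49.3%. At least 2-fold, 55 (19.4%) were higher in the maxillary library, against 1.09% of all genes tested, and 24 (8.45%) in the medial nasal library, against 3.35% of all genes tested. Gata2 was shared by the nasal pair, with 61.3 CPM in the medial nasal and 5.59 CPM in the maxillary library, and Barx1 by the arch pair, with 7.94 CPM in the medial nasal and 118 CPM in the maxillary library. Other genes were far higher in 1 library than in the other 3. Pax7 had 21.6 CPM in the medial nasal library, well under the lateral nasal level, and Hand2 had 0 counts in the medial nasal library and 1.3 CPM in the maxillary library. Of the 284 genes, the maxillary level lay nearer the lateral nasal level for 171 and nearer the mandibular level for 113. The medial nasal level of the 284 lay nearer the lateral nasal level for 187 and nearer the mandibular level for 97. For the 320 genes, the medial nasal level lay nearer the lateral nasal level for 276 and nearer the mandibular level for 44. Their maxillary level lay nearer the lateral nasal level for 101 and nearer the mandibular level for 219. No such share was computed over all genes tested, so these counts have no background beside them.

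**Figure D5:**
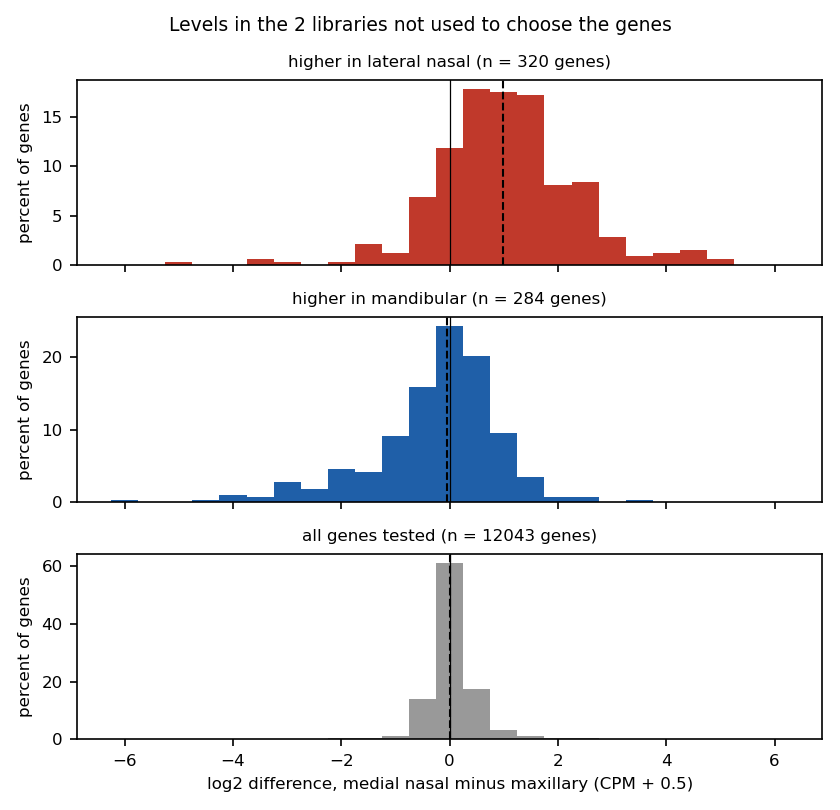
Histograms of the log2 difference, medial nasal minus maxillary, as percent of genes in bins, for the 320 genes higher in the lateral nasal library, the 284 higher in the mandibular library and all 12043 genes tested; dashed lines mark medians. The medians are 0.99, -0.05 and 0.00482, so the first group lies to the medial nasal side and the second is centred near 0 with a tail to the maxillary side.

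Genes on both sides of the 2-fold limit differed little. Among protein-coding genes, Syt7 and Id3 were the lowest that passed in the lateral nasal direction, with log2 differences of 1.001 and 1.002. Arhgap45 and Raet1e were the highest protein-coding genes that did not, at 0.996 each. In the mandibular direction, again among protein-coding genes, Irx1 and Sema6b passed at -1.001 and -1.005, and Igfbp3 and Creb3l2 did not at -0.996 each.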

How the data were processed

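Total RNA of 4 facial processes of WT embryos was sequenced by the authors from stranded libraries depleted of ribosomal RNA, aligned to mm10 with STAR and counted with RSEM 1.4.1. The expected counts that the authors deposited carry no normalization, and reads matching more than 1 gene are shared out by RSEM; they also deposited TPM, which corrects for transcript length, and posterior mean counts.

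Expected counts were scaled to CPM over the 43346 gene entries without rounding; they were rounded only for intervals. Spike-in entries and entries that carry only a number were left out. Symbols and coordinates came from GENCODE M21 on GRCm38, the build of mm10, and were found for 42462 entries and not for 884. Exact 95% intervals of folds were computed with SciPy 1.17.1, and scaling alternatives with edgeR 4.0.16 (TMM) and DESeq2 1.42.0 (size factors only). The calling code was run on simulated counts with set folds that varied by counting error only. That run cannot speak to variation between embryos, dissections or libraries.

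Named genes were the 5 markers, the 12 protein-coding genes with the largest difference and the 5 most abundant called in each direction, 4 non-coding genes each way, and called members of 40 gene lists with up to 4 abundant members that were not called; some are left to the counts, and some are not reported here. Members and lists were chosen with earlier results of these data known. The promoter motifs and the X-linked genes were chosen after values were seen.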

Additional observations from a re-analysis of the deposited data

Results flagged for a closer look

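Entries that carry only a number, 26248 in each library, were used in no comparison. Together they held 4 counts in the lateral nasal library, 4 in the mandibular library, 5 in the maxillary library and 1 in the medial nasal library. These are sums over all such entries, so the 3 counts that a count of 0 allows for a single gene set no limit for them. What these entries are is not given in the sources used here.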

How the results depend on the processing

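No paired analysis was possible because each process has 1 library, and for the same reason no replicate could be left out. The 320 and 284 genes higher in the lateral nasal and in the mandibular library became 300 and 301 with TMM factors, 306 and 291 with DESeq2 size factors, and 315 and 277 with posterior mean counts. They became 205 and 233 with deposited TPM and a minimum of 5 TPM, of which 140 and 147 were among the original genes; over genes with at least 5 CPM and no TPM minimum, an alternative chosen after seeing the data, they were 274 and 253. A minimum of 1 CPM gave 556 and 537, a minimum of 20 CPM 93 and 118, and no minimum 649 and 615. A 3-fold limit gave 140 and 139, a 1.5-fold limit 691 and 693, and a counting interval wholly above 2 left 212 and 206. The median log2 difference of skeletal muscle genes was -4.24 with a pseudocount of 0.1 and -2.61 with one of 2, and that of Dlx genes -2.04 with one of 2; the medians of the other lists shifted by no more than 0.5 of the width of their counting interval under the alternatives run on them. That definition replaced an earlier one, after its result was seen, by which a value counted as moved when it lay outside its own counting interval: rounding alone then marked 2 of 40 list medians and 10 of 145 uncalled genes, and TPM marked 5 medians and 30 genes, against 0 medians and 17 genes by the definition used. None of the 154 named genes called at least 2-fold apart changed sign under the alternatives run on them, but 6 named genes that were not called did, as did 3 list medians: axon guidance and ephrin signalling (0.02, and -0.01 with TMM factors), Schwann cell precursors (0.05, and -0.05 with TPM) and leukocytes (-0.01, and 0.03 with TPM). Of 299 named genes, 37 lost and 1 gained the call with TPM, 31 of the 37 through the minimum of 5 TPM while still at least 2-fold apart and 6 by lying under 2-fold, 4 lost it under each of the 3 scaling alternatives, 4 gained it with scaling to protein-coding genes, and mt-Co3 and Rpl30-ps9 lost it with posterior mean counts.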

Other observations

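Genes on the X chromosome were chosen for a look after their values were seen. Of 425 tested, 5 were higher in the lateral nasal library and 22 in the mandibular library (5.18%, beside 2.36% of all genes tested), while their median log2 difference was 0.03. Nrk, a kinase gene, had 36.6 CPM in the lateral nasal library and 232.7 CPM in the mandibular library. Amot, which encodes angiomotin, had 198 CPM (lateral nasal) against 619 CPM (mandibular), and Gpc3, a glypican gene, 367 CPM (lateral nasal) against 878 CPM (mandibular). Cited1, a transcriptional co-regulator gene, had 2.78 CPM (lateral nasal) against 30.8 CPM (mandibular). The medial nasal and maxillary levels of Nrk, Amot, Gpc3 and Cited1 lay nearer the lateral nasal level. For Nrk these were 51.7 CPM in the medial nasal library and 41.1 CPM in the maxillary library. Not all of the 22 genes did so: Nexmif had 5.32 CPM (lateral nasal) against 18.7 CPM (mandibular), and 12.9 CPM in the maxillary library.

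Hoxa2, a gene of the second arch that first arch mesenchyme lacks, had 0 counts in the lateral nasal library and 6.65 CPM in the mandibular library, at least 35.8-fold higher against a floor of 3 counts. Of 11 Hox genes listed, it alone reached 5 CPM. It had 0 counts in the medial nasal library and 0.195 CPM in the maxillary library.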
